A study of Bos taurus with 15 samples.

Results

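Ribosome biogenesis and snoRNP protein genes were compared between bovine blastocysts cultured with frozen or fresh oviductal extracellular vesicles (oEVs) or without them. The genes were taken by symbol from the filtered count table, and all 54 genes of the list were found among its 10832 genes. They fell into 4 box C/D snoRNP proteins, 6 box H/ACA snoRNP proteins and assembly factors, 3 nucleolar phosphoproteins and chaperones, 24 factors of the small subunit processome and 40S assembly, 10 factors of 60S assembly, and 7 genes of RNA polymerase I and its factors. Ribosomes are built in the nucleolus, where RNA polymerase I transcribes the precursor of the large rRNAs. Small nucleolar RNAs (snoRNAs) guide chemical changes and cleavage of that precursor, and do so only as particles with proteins, the snoRNPs. In cattle embryos the nucleolus becomes active when the embryonic genome is switched on during the cleavage stages, so that blastocysts make their own ribosomes.

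The embryos were produced in vitro, and the oEVs came from cows in the postovulatory stage. Fresh and frozen oEVs were taken from the same oviducts and divided between these treatments, so that FeEV and FoEV share their source material, and the sources used here do not tie single pools to an oEV preparation. Control embryos (Co) were cultured with no supplement, FeEV embryos with oEVs used fresh, and FoEV embryos with oEVs that had been frozen. Each treatment had 5 libraries of total RNA, each prepared from 1 ng of RNA of a pool of 8 to 14 blastocysts of day 7 per the sample labels, while the text of the study gives a longer culture. The libraries were made from the pools with the best RNA, and the sources used here do not say which pools shared a culture run, so that p-values measure the spread between pools.

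The libraries held 2136713 to 4058887 counts on genes, and every FoEV library (3392613 to 4058887) held more than every Co library (2571558 to 2977004). The 54 genes made up 0.481% ± 0.0598 of all counts in Co libraries, 0.506% ± 0.0322 in FeEV libraries and 0.487% ± 0.0217 in FoEV libraries (mean ± SD, n = 5 each). Each of the 54 genes had 20 to 3335 counts in each library. All 6 epiblast markers were in the filtered table. Their summed level ran from 452 to 562 CPM (counts scaled to library size) in Co, from 475 to 551 in FeEV and from 417 to 617 in FoEV. The summed level of the trophectoderm markers, 9 of 10 of which were in that table, ran from 7866 to 10736 CPM in Co, from 8369 to 12447 in FeEV and from 10133 to 13512 in FoEV. The hypoblast markers, 5 of 6 in the table, summed to 6336 to 8805 CPM in Co, 5518 to 7840 in FeEV and 4629 to 7284 in FoEV. Among the markers of other cells, the summed level over all libraries was at most 38.0 CPM for 6 genes of oviduct epithelium, 45.2 for 6 of cumulus and granulosa cells, and 11.5 for 5 of blood cells, with HBB at 0 in every library. The part of these markers in the results below was not tested. In pools of whole embryos, fewer cells of a type and less RNA per cell cannot be told apart.

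FoEV treatment vs. Co gave 0 of the 54 genes an adjusted p under 0.05 in edgeR's quasi-likelihood test, beside 0.00923% of the whole table. The smallest adjusted p was 0.131, for WDR75, a component of the early small subunit processome. WDR75 was the gene that passed with the likelihood ratio test of edgeR (adjusted p = 0.0300) and with DESeq2 (adjusted p = 0.0362), 1 of 54 with each, where these tests passed 2.87% and 1.33% of all genes. Among the 54, 6 genes (11.1%) had an unadjusted p under 0.05, against 15.1% of all genes. Of these 6, NHP2, DDX49, NOP56 and POLR1D were higher in FoEV, where 8.18% of all genes were, and WDR75 and POLR1B were lower, where 6.88% of all genes were. Without FoEV replicate 4 the count was 2, WDR75 and NHP2, and the share of all genes was 11.9%. The share of the 54 genes at this threshold was below that of all genes, with no test of the difference. The median log2 fold change of the 54 genes was 0.03, beside 0.01 over all genes, with a range from -0.36 to 0.42. Leaving out single libraries, this median ran from 0.00 (without FoEV replicate 4) to 0.07 (without Co replicate 2). Of the 54 genes 31 were higher in FoEV (57.4%, beside 52.3% of all genes). The 5 FoEV and 5 Co libraries did not overlap for 1 gene that was lower, WDR75, and for 0 genes that were higher, beside 1.35% and 1.26% of all genes. The 95% interval of the fold change lay within 1.5-fold in either direction for 50 of the 54 genes, and reached past it for NHP2, WDR36, DDX49 and POLR1D.

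In FeEV treatment vs. Co, which shares the Co libraries with the comparison above, 0 of 54 genes passed an adjusted p of 0.05 (0.0% of the table). At an unadjusted p under 0.05 the count was also 0, with 0 higher and 0 lower, beside 4.15% of all genes, 1.83% higher and 2.32% lower. The likelihood ratio test and DESeq2 also gave 0 genes at either threshold, beside 0.0554% and 0.00923% of all genes at the adjusted one and 6.13% and 3.79% at the unadjusted one. Single libraries moved this count to 1 (NHP2, without Co replicate 1) or 2 (MPHOSPH10 and WDR43, without Co replicate 2, and NHP2 and RRP9, without FeEV replicate 3), where the share of all genes was 4.06%, 5.63% and 3.76%. The log2 fold change was above 0 for 37 genes (68.5%, beside 51.0% of all genes), with a median of 0.06, beside 0.00 over all genes, and a range from -0.21 to 0.32. With single libraries left out this median ran from 0.03 (without Co replicate 3) to 0.08 (without Co replicate 2). No library sets were separate for any of the 54 genes, where 0.535% of all genes were separately higher and 0.415% separately lower. The interval lay within 1.5-fold for 52 genes, with DDX49 and RRP9 as the exceptions.

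FoEV and FeEV treatment were compared directly in the same fit, and this comparison shares its libraries with the other two. Again 0 of 54 genes passed an adjusted p of 0.05 with edgeR's quasi-likelihood test (0.0% of all genes), its likelihood ratio test (0.286%) or DESeq2 (0.0277%). With the likelihood ratio test the smallest adjusted p were 0.0549 for WDR75 and 0.0853 for DDX49. The paper, which set a likelihood ratio threshold here in place of an adjusted p, lists DDX49 among the genes higher in FoEV than in FeEV. At the lower bar, 6 genes had an unadjusted p under 0.05 in the quasi-likelihood test (11.1%, beside 8.52% of all genes). DDX49 and NOP10 were higher in FoEV than in FeEV, where 4.83% of all genes were, and WDR75, UTP15, POLR1A and UTP20 were lower, where 3.69% were. The count was 3 without FeEV replicate 2 (WDR75, UTP15 and DDX49) and 3 without FoEV replicate 1 (IMP4, WDR75 and DDX49), where the share of all genes was 5.87% and 6.49%. The median log2 fold change was 0.01, as over all genes, and 28 genes (51.9%) were higher in FoEV, beside 51.8% of all genes. The median turned below 0 without FeEV replicate 1 (-0.03), FeEV replicate 3 (-0.03), FoEV replicate 3 (-0.0031) or FoEV replicate 4 (-0.02). WDR75 was again the 1 gene with separate libraries, lower in FoEV, where 0.748% of all genes were, and 0 genes were separately higher, where 0.757% of all genes were. The interval lay within 1.5-fold for 48 genes, and the exceptions were NOP10, WDR75, WDR36, DDX49, RRP9 and POLR1C.

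**Figure D1:**
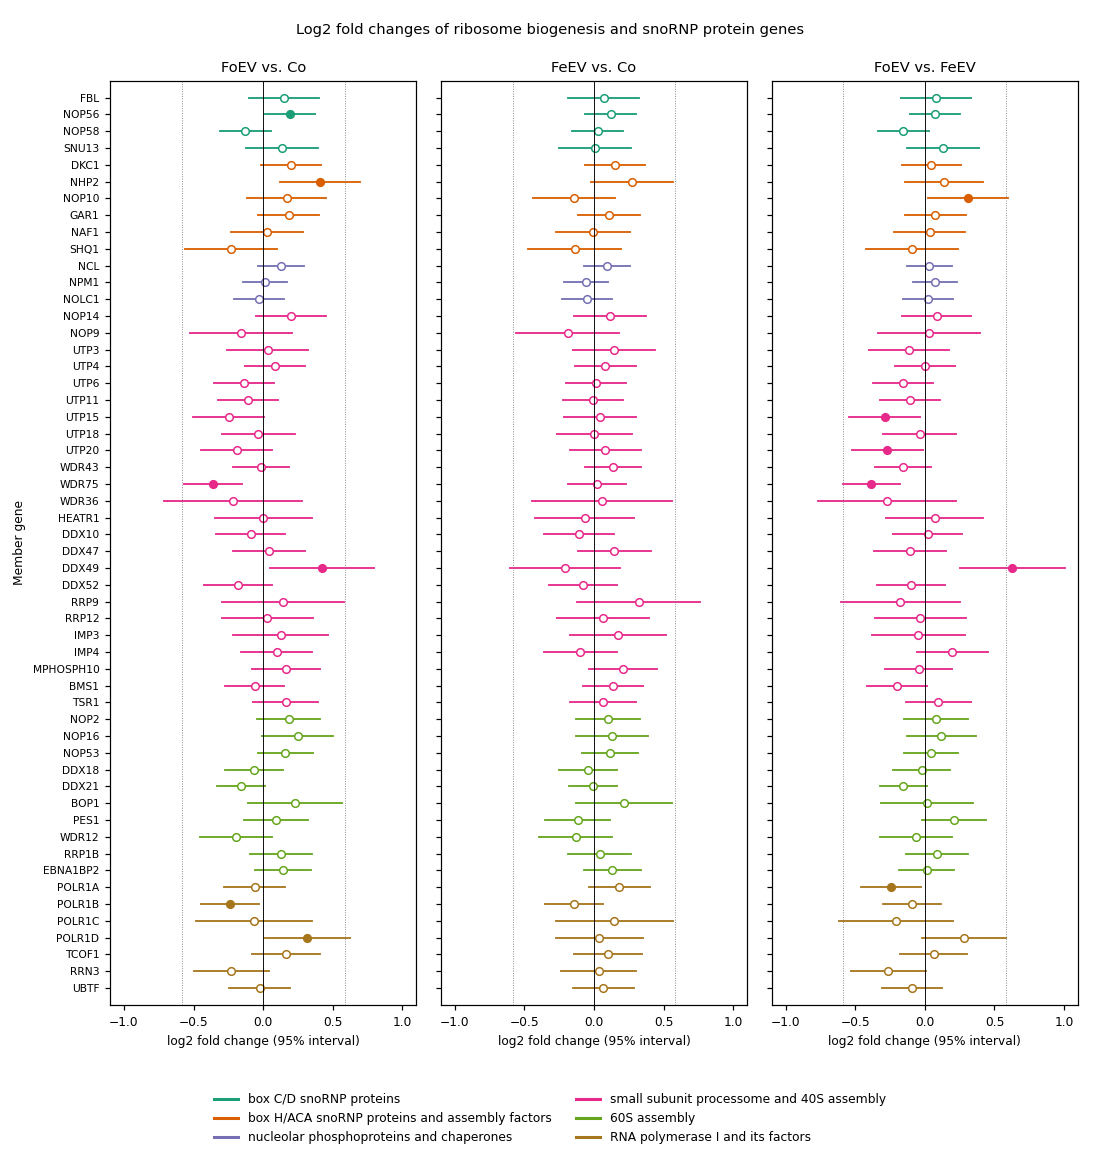
Log2 fold change of each of the 54 genes (rows, colored by role) in FoEV vs. Co, FeEV vs. Co and FoEV vs. FeEV, with 95% intervals from the quasi-likelihood fit. Filled points have an unadjusted p under 0.05 (6, 0 and 6 genes), and dotted lines mark a 1.5-fold difference.

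**Figure D2:**
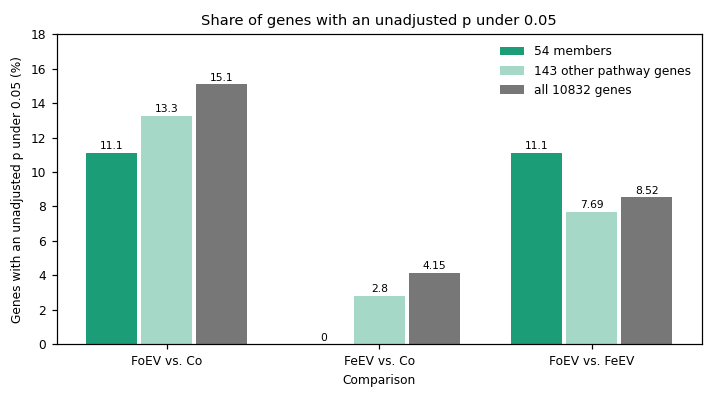
Percentage of genes with an unadjusted p under 0.05 in each comparison, for the 54 genes, 143 further genes of the pathway and all 10832 genes. The 54 genes sit at 11.1%, 0 and 11.1%, and all genes at 15.1%, 4.15% and 8.52%.

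The box C/D snoRNP proteins carry the snoRNAs that guide methylation of rRNA riboses. FBL is the methyltransferase, NOP56 and NOP58 form the scaffold, and SNU13 binds the kink of the snoRNA. NOP56 (gene ID 404165) was measured at 148, 158, 157, 143 and 149 CPM in the 5 Co libraries. In FeEV it was at 158, 170.1, 151, 164 and 176 CPM and in FoEV at 186, 140.0, 172, 179 and 185 CPM. FoEV replicate 2 was the lowest library of all, and the other 4 FoEV libraries were above every Co library. The log2 fold change of NOP56 was 0.19 (SE 0.09, unadjusted p = 0.0369, adjusted p = 0.295) in FoEV vs. Co, and 0.12 (SE 0.09, adjusted p = 1.00) in FeEV vs. Co. NOP56 overlaps IDH3B in the annotation, and whether the counting used strand is not given in the sources used here.

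NOP58, the partner of NOP56, had the opposite sign in FoEV vs. Co and reached no unadjusted p under 0.05. Its level was 210.0, 239, 206, 201 and 218 CPM in Co and 217, 216, 201, 258 and 204 CPM in FeEV. In FoEV it was 181, 189, 222, 189 and 202 CPM, with libraries that overlapped those of Co and FeEV. On the log2 scale the fold change of NOP58 was -0.13 (SE 0.09, adjusted p = 0.50) in FoEV vs. Co, 0.03 (SE 0.09, adjusted p = 1.00) in FeEV vs. Co and -0.15 (SE 0.09, adjusted p = 0.621) in FoEV vs. FeEV. The difference between the log2 fold changes of both scaffold genes was not tested. FBL and SNU13 were at 0.15 and 0.14 in FoEV vs. Co, and the 4 genes had a median of 0.14, with 3 above 0. All 4 were above 0 in FeEV vs. Co, with a median of 0.05.

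The box H/ACA particles convert uridines of rRNA to pseudouridines, and also hold the RNA of telomerase. DKC1 (dyskerin) is the enzyme, NHP2, NOP10 and GAR1 are its partners, and NAF1 and SHQ1 help to assemble it. NHP2 (gene ID 520891) was at 32.1, 30.4, 28.7, 24.1 and 25 CPM in Co and at 34.0, 40.8, 30.0, 32.8 and 32.7 CPM in FeEV. In FoEV it was at 37.5, 34.8, 37.7, 48.4 and 28.9 CPM. Of the 5 FoEV libraries 4 were above every Co library, replicate 4 was the highest of all and replicate 5 lay within the Co range. NHP2 had a log2 fold change of 0.41 (SE 0.14, unadjusted p = 0.00725, adjusted p = 0.179) in FoEV vs. Co, and of 0.27 (SE 0.14, adjusted p = 1.00) in FeEV vs. Co, which shares the Co libraries. Without FoEV replicate 4 the first was 0.31, with an adjusted p of 0.364.

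NOP10 differed in FoEV vs. FeEV, where its log2 fold change was 0.31 (SE 0.14, unadjusted p = 0.0349, adjusted p = 0.560). Its CPM were 26.3, 22.3, 21.6, 20.9 and 21.8 in Co, 20, 19.3, 20, 21.0 and 21.8 in FeEV and 31.3, 20.7, 24.2, 29.0 and 21.5 in FoEV. The FeEV libraries lay in a narrow band that overlapped the lower FoEV libraries, and FoEV replicates 1 and 4 were the highest. DKC1 was at 106, 90.1, 121, 118 and 95.6 CPM in Co, 107, 129.6, 115, 109 and 128 in FeEV and 129, 126, 109, 139 and 107 in FoEV. All 3 treatments overlapped for DKC1, whose log2 fold change was 0.20 (SE 0.10, adjusted p = 0.371) in FoEV vs. Co and 0.15 (SE 0.10, adjusted p = 1.00) in FeEV vs. Co, where it was 0.10 without Co replicate 2. GAR1, at 50.6 ± 2.67 CPM in Co, 54.5 ± 7.42 in FeEV and 57.5 ± 5.10 in FoEV (mean ± SD, n = 5 each), was at 0.18 on the log2 scale in FoEV vs. Co. Of the 6 genes 5 were above 0 in FoEV vs. Co, with a median of 0.18, and SHQ1 was below, at -0.23. Against Co, FeEV had 3 above 0 and a median of 0.05.

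Nucleolin (NCL) and nucleophosmin (NPM1) are abundant nucleolar proteins, and NOLC1 is a chaperone of snoRNPs. NCL had 745, 827, 717, 724 and 701 CPM in Co and 765, 882, 705, 812 and 799 CPM in FeEV. In FoEV it had 772, 808, 811, 889.7 and 776 CPM, within a range that overlapped both other treatments. Its log2 fold change was 0.13 (SE 0.08, adjusted p = 0.454) in FoEV vs. Co and 0.09 (SE 0.08, adjusted p = 1.00) in FeEV vs. Co. NPM1 was at 554 ± 40.2 CPM in Co, 532 ± 29.1 in FeEV and 559.5 ± 25.2 in FoEV, with log2 fold changes of 0.02 and -0.06 against Co. Processed copies of NPM1 exist in mammalian genomes, so its counts are uncertain where reads could map to a copy. NOLC1 was at -0.03 and -0.05. Intervals of all 3 genes stayed within 1.5-fold in all 3 comparisons.

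The small subunit processome is the large particle that forms on the nascent precursor and releases the precursor of the 40S subunit. Its UTP-A module, which includes WDR75, UTP15, WDR43, UTP4 and HEATR1, binds first. WDR75 (gene ID 521240) was at 80.2, 98.9, 86.1, 81.5 and 85.4 CPM in Co and at 83.2, 97.3, 72.6, 101 and 86.9 CPM in FeEV. In FoEV it was at 60.4, 71.4, 69.2, 66.4 and 69.5 CPM. Every FoEV library lay below every Co library and below every FeEV library, the closest being the FeEV replicate 3 and the FoEV replicate 2. The log2 fold change was -0.36 (SE 0.10, unadjusted p = 0.00164, adjusted p = 0.131) in FoEV vs. Co, and -0.38 (SE 0.10, unadjusted p = 0.000907, adjusted p = 0.447) in FoEV vs. FeEV. FeEV vs. Co gave 0.02 (SE 0.10, adjusted p = 1.00). Over 19 other settings of the FoEV vs. Co comparison, the log2 fold change of WDR75 ran from -0.39 to -0.31 and its adjusted p from 0.0300 to 0.283, and in FoEV vs. FeEV the adjusted p ran from 0.0549 to 0.756.

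The other genes of the UTP-A module did not share the separation seen for WDR75. They were grouped after the value of WDR75 was seen. UTP15 was at 53.6, 65.1, 56.8, 64.6 and 42.7 CPM in Co, 54.8, 54.2, 60.7, 71.5 and 51.7 in FeEV and 43.8, 42.4, 52.9, 48.4 and 51.5 in FoEV. Its FoEV libraries overlapped those of both other treatments, and its log2 fold change was -0.25 (SE 0.12, adjusted p = 0.348) in FoEV vs. Co and -0.29 (SE 0.12, unadjusted p = 0.0273, adjusted p = 0.544) in FoEV vs. FeEV. WDR43 was at 149 ± 24.8 CPM in Co, 164 ± 5.85 in FeEV and 147 ± 9.52 in FoEV. Its log2 fold change was -0.02 in FoEV vs. Co, 0.14 (SE 0.10, adjusted p = 1.00) in FeEV vs. Co and -0.15 in FoEV vs. FeEV. Without Co replicate 2, FeEV vs. Co gave 0.24 for WDR43. UTP4 and HEATR1 were at 0.08 and 0.00 in FoEV vs. Co, and HEATR1 overlaps LGALS8 in the annotation. Over the 5 genes the median in FoEV vs. Co was -0.02.

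DDX49, a DEAD-box RNA helicase of the processome, had the largest log2 fold changes of the 54 genes in FoEV vs. Co and in FoEV vs. FeEV. It (gene ID 533809) was at 18.2, 16.2, 14.5, 16.5 and 20.9 CPM in Co and at 17.0, 13.4, 16, 17.3 and 11.2 CPM in FeEV. In FoEV it was at 21.8, 14.9, 27.0, 30.0 and 22.1 CPM. For DDX49, 4 FoEV libraries were above every Co and every FeEV library, and FoEV replicate 2 lay within both ranges. The log2 fold change was 0.63 (SE 0.18, unadjusted p = 0.00220, adjusted p = 0.450) in FoEV vs. FeEV and 0.42 (SE 0.18, unadjusted p = 0.0294, adjusted p = 0.271) in FoEV vs. Co. Against Co, FeEV was at -0.21 (SE 0.19, adjusted p = 1.00).

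UTP20, a large scaffold of the processome, was at 142, 179.8, 145, 174 and 123 CPM in Co, 163, 198, 139, 178 and 132 in FeEV and 116, 147, 119, 155 and 133 in FoEV. The 3 treatments overlapped, and the log2 fold change was -0.27 (SE 0.12, unadjusted p = 0.0382, adjusted p = 0.564) in FoEV vs. FeEV. BMS1, a GTPase of the processome, was at 132 ± 15.8 CPM in Co, 146 ± 20.6 in FeEV and 126 ± 8.08 in FoEV, with -0.20 (SE 0.10, adjusted p = 0.592) in FoEV vs. FeEV and 0.14 (SE 0.10, adjusted p = 1.00) in FeEV vs. Co. The latter was 0.08 without FeEV replicate 2 and 0.09 without Co replicate 5. UTP6, a UTP-B component, was at 339.8 ± 53.9 CPM in Co, 344 ± 44.0 in FeEV and 309 ± 7.22 in FoEV, at -0.14 on the log2 scale in FoEV vs. Co. UTP6 contains the miRNA gene MIR2332 in the annotation.

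MPHOSPH10 and RRP9 belong with the U3 snoRNP, the box C/D particle around which the processome is organized. In FeEV vs. Co the log2 fold change of MPHOSPH10 was 0.21 (SE 0.12, adjusted p = 1.00) and that of RRP9 was 0.32 (SE 0.21, adjusted p = 1.00). RRP9 was at 9.84, 9.78, 8.06, 12.4 and 9.44 CPM in Co, 13.4, 13.7, 7.82, 14.6 and 12.6 in FeEV and 9.49, 7.82, 12.4, 15.0 and 10.4 in FoEV. For RRP9, 4 FeEV libraries were above every Co library, and FeEV replicate 3 was below all of them. The 16 genes of the 24 that were outside the 10 smallest p of each comparison, NOP14, NOP9, UTP3, UTP4, UTP6, UTP11, UTP18, WDR36, HEATR1, DDX10, DDX47, DDX52, RRP12, IMP3, IMP4 and TSR1, had log2 fold changes from -0.22 to 0.20 in FoEV vs. Co, from -0.19 to 0.17 in FeEV vs. Co and from -0.27 to 0.20 in FoEV vs. FeEV, with no unadjusted p below 0.118. The 24 genes were split evenly in FoEV vs. Co, with 12 above 0 and a median of -0.01. In FeEV vs. Co 17 were above 0, with a median of 0.06, and in FoEV vs. FeEV 8 were, with a median of -0.07.

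**Figure D3:**
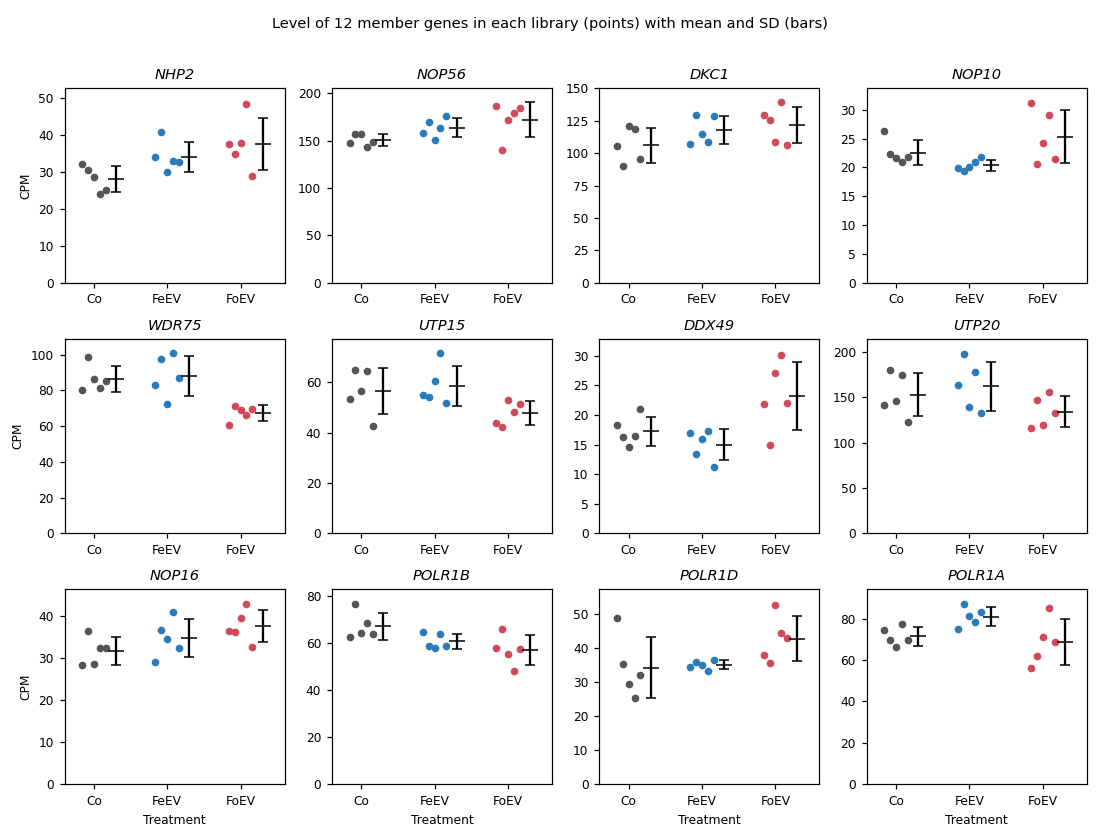
CPM of 12 of the 54 genes in each library (points, 5 per treatment), with the mean and SD beside them and a linear axis from 0. WDR75 is the 1 gene of the 54 whose FoEV points, 60.4 to 71.4 CPM, all lie below every Co and FeEV point.

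The factors of 60S assembly include NOP2, a methyltransferase of the large rRNA, the PES1, BOP1 and WDR12 complex, and the helicases DDX18 and DDX21. NOP16 was at 28.4, 36.4, 28.7, 32.5 and 32.4 CPM in Co, 29.2, 36.8, 34.7, 41.0 and 32.4 in FeEV and 36.6, 36.3, 39.7, 43.1 and 32.7 in FoEV. Its libraries overlapped between treatments, and its log2 fold change was 0.25 (SE 0.12, unadjusted p = 0.0548, adjusted p = 0.346) in FoEV vs. Co. DDX21, which also binds snoRNAs and RNA polymerase I transcription sites, was at 210.0, 219, 209.9, 204 and 213 CPM in Co, 193, 216, 187, 239 and 220.4 in FeEV and 179, 196, 208, 179 and 186 in FoEV. For DDX21, 4 FoEV libraries lay below every Co library, and the log2 fold change was -0.16 (SE 0.08, adjusted p = 0.368) in FoEV vs. Co and -0.15 (SE 0.08, adjusted p = 0.602) in FoEV vs. FeEV. EBNA1BP2 was at 47.2 ± 4.30 CPM in Co, 51.6 ± 1.79 in FeEV and 52.1 ± 3.43 in FoEV, at 0.13 (SE 0.10, adjusted p = 1.00) in FeEV vs. Co and at 0.08 there without Co replicate 3. DDX18 was at -0.07 in FoEV vs. Co. NOP2, NOP53, DDX18, BOP1, PES1, WDR12 and RRP1B ran from -0.20 to 0.23 in FoEV vs. Co and from -0.13 to 0.21 in FeEV vs. Co. The parts of the PES1, BOP1 and WDR12 complex had different signs in FoEV vs. Co, at 0.09, 0.23 and -0.20. Of the 10 genes 7 were above 0 in FoEV vs. Co, with a median of 0.14, and 6 in FeEV vs. Co, with a median of 0.07.

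RNA polymerase I is represented by its catalytic subunits POLR1A and POLR1B, by POLR1C and POLR1D, which RNA polymerase III also contains, and by the factors TCOF1, RRN3 and UBTF. POLR1B (gene ID 282342) was at 62.3, 76.6, 64.2, 68.6 and 63.6 CPM in Co and at 64.7, 58.7, 57.9, 63.8 and 58.7 CPM in FeEV. In FoEV it was at 57.7, 66.1, 55.1, 48.1 and 57.2 CPM. Of the FoEV libraries 4 were below every Co library, and FoEV replicate 2 was within the Co range. POLR1B had a log2 fold change of -0.24 (SE 0.10, unadjusted p = 0.0268, adjusted p = 0.260) in FoEV vs. Co, and -0.14 (SE 0.10, adjusted p = 1.00) in FeEV vs. Co, where it was -0.09 without Co replicate 2.

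POLR1D (gene ID 539061) was at 48.9, 35.4, 29.3, 25.3 and 32.0 CPM in Co, 34.6, 36.0, 35.0, 33.2 and 36.6 in FeEV and 38.0, 35.6, 52.6, 44.4 and 43.1 in FoEV. Co replicate 1 stood within the FoEV range, the other 4 Co libraries lay below every FoEV library, and the log2 fold change was 0.32 (SE 0.15, unadjusted p = 0.0418, adjusted p = 0.312) in FoEV vs. Co. Without Co replicate 1 it was 0.48, with an adjusted p of 0.101. The log2 fold change of POLR1D in FoEV vs. FeEV was 0.28 (SE 0.15, adjusted p = 0.598).

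POLR1A was at 74.4, 69.5, 66.1, 77.5 and 69.8 CPM in Co, 75.1, 87.3, 81.3, 78.3 and 83.2 in FeEV and 56.0, 61.8, 71.4, 85.1 and 69.0 in FoEV. FoEV replicates 1 to 3 and 5 were below every FeEV library, and FoEV replicate 4 was above 4 of them, with a log2 fold change of -0.24 (SE 0.10, unadjusted p = 0.0285, adjusted p = 0.548) in FoEV vs. FeEV. FeEV vs. Co gave 0.18 (SE 0.11, adjusted p = 1.00). RRN3, which brings the polymerase to its promoter, had a log2 fold change of -0.26 (SE 0.13, adjusted p = 0.581) in FoEV vs. FeEV and of -0.23 in FoEV vs. Co, and UBTF, which binds the rDNA promoter, was at 69.2 ± 8.57 CPM in Co, 72.5 ± 6.19 in FeEV and 68.1 ± 6.54 in FoEV. The remaining genes, POLR1C and TCOF1, had 0 unadjusted p under 0.05 in any comparison, and POLR1C overlaps XPO5 in the annotation. Of the 7 genes 2 were above 0 in FoEV vs. Co, with a median of -0.06, and 6 in FeEV vs. Co, with a median of 0.07.

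A list of 143 further genes of the pathway, from the remaining processome, 60S and RNA polymerase I components to rRNA trimming and snoRNP assembly, gave the setting for these values. In FoEV vs. Co 0 of 143 had an adjusted p under 0.05, beside 0.00923% of all genes. The unadjusted threshold of 0.05 was passed by 19 of them (13.3%, beside 15.1% of all genes). Of these 19, 13 had a positive log2 fold change, a direction in which 8.18% of all genes passed. The other 6 had a negative one, where 6.88% of all genes passed. The median log2 fold change was 0.08, beside 0.01 over all genes, with 89 genes above 0 (62.2%, beside 52.3% of all genes). TSR3, which modifies a base of the 18S rRNA, was at 0.85 (SE 0.23, adjusted p = 0.123), POP1, a subunit of RNases MRP and P, at 0.62 (SE 0.17, adjusted p = 0.131), and RPP30, another subunit of these RNases, at -0.41 (SE 0.11, adjusted p = 0.131). These 3 genes passed with the likelihood ratio test of edgeR, with adjusted p of 0.0168, 0.0219 and 0.0327, a test that passed 2.87% of all genes. The paper lists TSR3 and POP1 among its genes higher in FoEV than in Co. In FeEV vs. Co 4 of 143 were higher and 0 lower at an unadjusted p under 0.05 (2.80%), beside 4.15% of all genes, 1.83% higher and 2.32% lower. GNL2, URB1 and NOC4L had the smallest p there, with log2 fold changes of 0.26, 0.33 and 0.34. In FoEV vs. FeEV 6 were higher and 5 lower (7.69%), beside 8.52% of all genes, 4.83% higher and 3.69% lower. NOPCHAP1, a chaperone of box C/D assembly, was at -0.43 there (SE 0.14, adjusted p = 0.467), POP1 at 0.50 and WDR18 at 0.28. In each comparison the share of the 143 genes at the unadjusted threshold was below that of all genes, with no test of the difference.

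The library medians of the deviation of the 54 genes from their own means ran from -0.09 (Co replicate 5) to 0.12 (FoEV replicate 4) on the log2 scale. FeEV replicates 2 and 4 had 41 and 39 of 54 genes above their own mean, Co replicate 2 had 36 and FoEV replicate 4 had 33, and the other libraries had 18 to 30. The mean pairwise correlation of deviations from the treatment means over the 15 libraries was 0.138 for the 54 genes, and 0.000287 over all 10832 genes. It was 0.475 for the 3 nucleolar phosphoproteins and chaperones, 0.247 for box C/D, 0.241 for 60S assembly, 0.197 for the small subunit processome, 0.0577 for box H/ACA and -0.0195 for RNA polymerase I and its factors. These values are descriptions, as the points share libraries and depth, and noise of counting lowers them for genes with few counts. Scaling each library tends to cancel shared deviations over all genes, so the value over all genes is not a baseline for the 54. The spread between libraries, as the biological coefficient of variation, had a median of 0.119 over the 54 genes, beside 0.148 over all genes. The 54 genes had higher levels, with a median of 54.4 CPM beside 27.9 over all genes. Neither this coefficient nor the correlation was compared at matched levels.

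**Figure D4:**
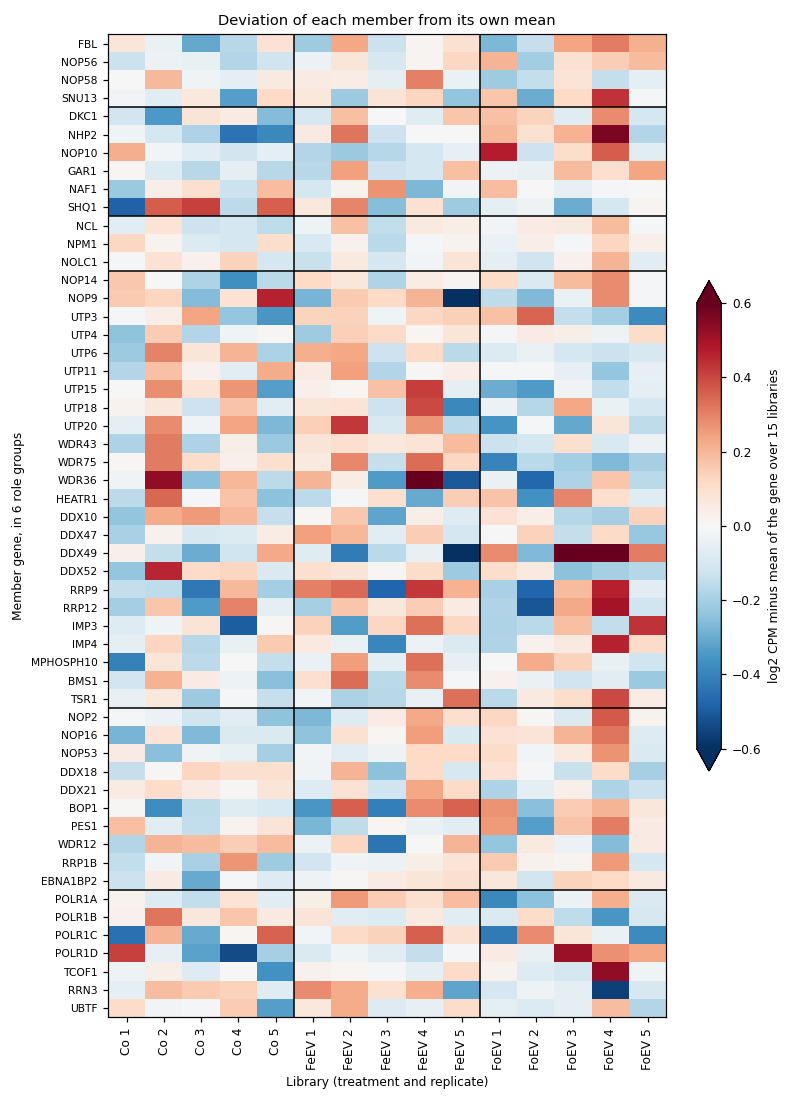
Deviation of log2 CPM of each of the 54 genes (rows, in 6 role groups) from its mean over 15 libraries (columns, by treatment), with colors that end at ±0.6. FeEV replicates 2 and 4, Co replicate 2 and FoEV replicate 4 have 41, 39, 36 and 33 of 54 genes above their mean.

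In the annotation 7 of the 54 genes carry 19 snoRNA genes inside them. The snoRNA genes were looked up after the values were seen, and the level of snoRNAs in these libraries was already known: snoRNA and snRNA genes held 0.214% ± 0.0679 of the Co library totals, 0.220% ± 0.0573 of the FeEV totals and 0.412% ± 0.142 of the FoEV totals (mean ± SD, n = 5 each). The hosts were NOP56 with 5, NOP58 with 4, NCL and WDR43 with 3 each, TSR1 with 2, and NOP53 and POLR1A with 1 each. Of the 19 genes 2 had no count in any library, and 16 of the other 17 had a higher mean CPM in FoEV than in Co. Among all 10832 genes kept by the filter, the log2 fold change in FoEV vs. Co was above 0 for 52.3%. Without that filter it was above 0 for 13905 of 25470 genes. These are fitted fold changes, while the 16 rest on mean CPM. Only 4 of the 19 passed that filter, and their values are given below. Some of the 16 differences were small, as for LOC112443642 (0.592 ± 0.416 CPM in Co, 0.702 ± 0.131 in FoEV). The share among snoRNA genes outside these hosts was not tested. Whether reads of a host intron and of a snoRNA inside it were counted apart is not given in the sources used here.

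The summed level of the 4 snoRNA genes inside NOP58 was 6.20, 4.05, 5.80, 7.22 and 40.6 CPM in Co, 6.26, 19.7, 12.8, 6.83 and 31.6 in FeEV and 7.18, 21.7, 40.8, 65.8 and 103 in FoEV. The treatments overlapped, with Co replicate 5 near the level of FoEV replicate 3 and FoEV replicate 1 within the Co range. NOP58 itself had a log2 fold change of -0.13 in FoEV vs. Co. The 5 snoRNA genes inside NOP56 summed to 27.7, 16.5, 13.2, 16.5 and 25.9 CPM in Co, 16.1, 23.0, 16, 14.6 and 25.7 in FeEV and 25.9, 17.9, 26.5, 47.1 and 39.8 in FoEV. FoEV replicates 4 and 5 stood above every Co and FeEV library. The 3 inside WDR43 were at 6.68 ± 4.89 CPM in Co, 9.55 ± 5.74 in FeEV and 19.7 ± 11.0 in FoEV, while WDR43 was at -0.02 in FoEV vs. Co.

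In all, 4 of these snoRNA genes were in the filtered table. None had an adjusted p under 0.05 in edgeR's quasi-likelihood test, which passed 0.00923% of all genes in FoEV vs. Co. Results of the other tests are not given here for these snoRNA genes. The paper, with a likelihood ratio threshold, lists snoRNA genes among those higher in FoEV embryos, and whether these 4 are among them was not checked. In FoEV vs. Co, LOC112449395 inside NOP56 had a log2 fold change of 0.79 (SE 0.23, adjusted p = 0.140) and LOC112448920 inside WDR43 one of 1.73 (SE 0.62, adjusted p = 0.220). Inside NOP58, LOC112443674 was at 1.80 (SE 0.53, adjusted p = 0.153) and LOC112443666 at 2.00 (SE 0.95, adjusted p = 0.347). In FeEV vs. Co the same 4 genes ran from 0.02 to 0.63. No test of the difference between host and snoRNA was made.

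**Figure D5:**
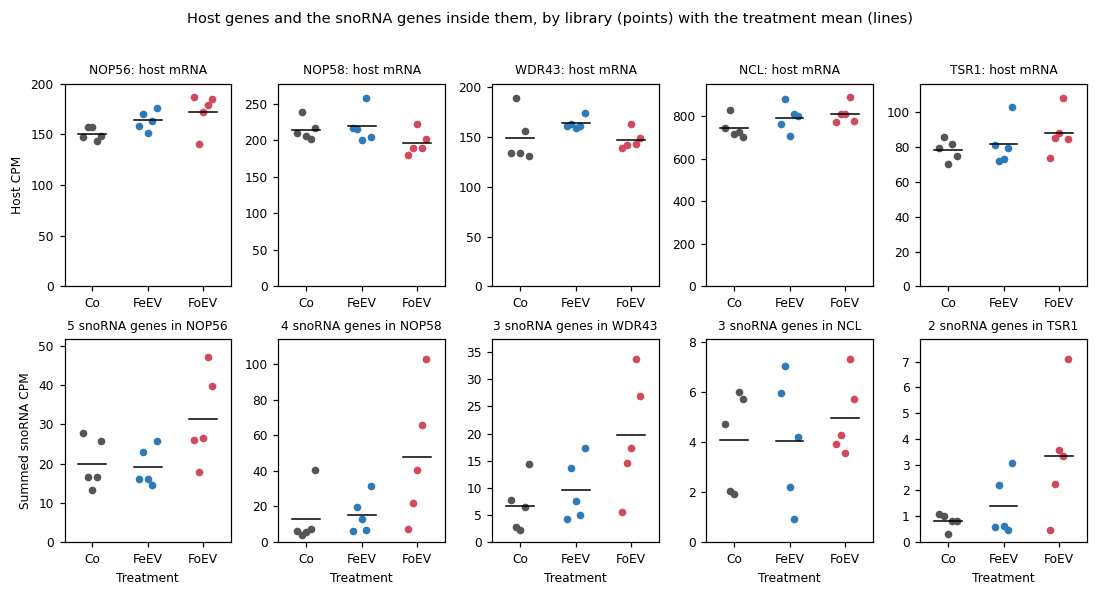
CPM of 5 host genes (top) and summed CPM of the snoRNA genes inside them (bottom) in each library (points) with the mean of each treatment (lines), on linear axes from 0. The snoRNA genes inside NOP58 average 47.6 CPM in FoEV and 12.8 in Co, with NOP58 at 197 and 215 CPM.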

How the data were processed

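Total RNA-seq libraries of 15 blastocyst pools fell into Co, FeEV and FoEV by their titles, with 5 each. The authors deposited read counts per gene, without normalization, for 34773 genes and for the 10832 genes they kept after filtering. The submitters' processing notes list Trim Galore 0.4.3.1, HISAT2 2.1.0 and featureCounts 1.6.3 with the assembly ARS-UCD1.2, while the methods of the study name another counter, and the strand setting is not given in the sources used here. The filtered counts were scaled by TMM and tested with edgeR 4.0.16 in R 4.3.3 by quasi-likelihood F tests (glmQLFit, robust, 1 fit over 15 libraries, treatment as the factor), with p-values adjusted by Benjamini and Hochberg over all 10832 genes, two-sided. CPM use TMM library sizes, and means are ± SD. The common biological coefficient of variation was 0.159, and no libraries agreed within sampling noise. The genes, lists and tests were chosen with earlier results of these data known. The text names, per comparison, the 10 genes of the 54 with the smallest p and, per role, the 2 with the highest mean CPM, 3 genes of the wider list per comparison, and the genes set apart by the check of single libraries. Alternatives were the likelihood ratio test with robust dispersion, DESeq2 1.42.0, other scaling factors, the filter of the methods and no filter, replicate blocks, fits on 2 treatments, and leaving out each library. Positions of genes inside or over others came from the RefSeq annotation of a later assembly (ARS-UCD2.0), for neighbours only. CPM were not divided by transcript length, which was not at hand, so levels of different genes served only to choose names.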

Additional observations from a re-analysis of the deposited data

Results flagged for a closer look

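In each treatment, each of the 54 genes was checked for 1 library apart from the other 4 by Dixon's test (critical value 0.71 for 5 libraries). Of the 162 groups 9 were set apart, where chance gives about 1 in 20. The library was above the others for NOP58 in FeEV replicate 4 (258 CPM, others 201 to 217), NOP10 in Co replicate 1 (26.3 CPM, others 20.9 to 22.3), NAF1 in FoEV replicate 1 (32.4 CPM, others 27.6 to 28.6), WDR43 in FeEV replicate 5 (174 CPM, others 159 to 163) and TCOF1 in FoEV replicate 4 (98.5 CPM, others 63.4 to 69.0). It was below the others for UTP3 in FeEV replicate 3 (32.8 CPM, others 36.4 to 36.9), UTP11 in FoEV replicate 4 (49.1 CPM, others 55.6 to 57.3), WDR12 in Co replicate 1 (37.6 CPM, others 47.0 to 48.9) and RRN3 in FoEV replicate 4 (25.7 CPM, others 35.4 to 37.1). Of the 9, 3 were in FoEV replicate 4, the library without which the FoEV vs. Co count at an unadjusted p under 0.05 was 2.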

How the results depend on the processing

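The count of genes with an adjusted p under 0.05 was 0 in all 3 comparisons, and 1 (WDR75) in FoEV vs. Co with the likelihood ratio test (311 of all 10832 genes) and 1 with DESeq2 (144 of all genes). The count at an unadjusted p under 0.05 ran, with libraries left out in turn, from 2 to 8 in FoEV vs. Co, from 0 to 2 in FeEV vs. Co (2 without Co replicate 2) and from 3 to 8 in FoEV vs. FeEV. With only the 2 treatments in the fit, FeEV vs. Co gave 1. The likelihood ratio test gave 7, 0 and 8 (18.1%, 6.13% and 11.0% of all genes), and DESeq2 6, 0 and 5 (14.7%, 3.79% and 8.33% of all genes). The median log2 fold change of the 54 genes moved by less than the spread between libraries (0.0699) in all 57 alternatives. That margin is larger than the medians themselves (0.03, 0.06 and 0.01), so that staying within it does not show that they hold. With single libraries left out the median ran from 0.00 to 0.07 in FoEV vs. Co and from 0.03 to 0.08 in FeEV vs. Co. In FoEV vs. FeEV it turned sign, from -0.03 to 0.03. Of 39 log2 fold changes of named genes, 6 moved by over 1.5 times without 1 library, none of them past the adjusted threshold. Of 741 values of named genes, 736 kept their direction and side of the threshold, 5 passed it (WDR75, TSR3, POP1 and RPP30 in FoEV vs. Co with the likelihood ratio test, and WDR75 with DESeq2) and 0 reversed. DESeq2 can leave a gene without an adjusted p, as for DDX49 in FoEV vs. Co. Such values were counted as not passing, here and in the DESeq2 counts and shares above.

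The sources used here do not say whether libraries with the same replicate number are paired, and the main fit treated them as unpaired. Over FoEV vs. Co, FeEV vs. Co and FoEV vs. FeEV, 1, 3 and 3 of 5 same-numbered pairs had deviations correlated over 0.1. Of 10 libraries, 2, 5 and 4 correlated best with their own number. Same-numbered pairs had a mean of 0.0344 in FoEV vs. Co, beside -0.00844 for other pairs. In FeEV vs. Co these means were 0.138 and -0.0343. In FoEV vs. FeEV, whose oEVs share a source, same-numbered pairs ran from 0.0134 to 0.441, with a mean of 0.186, beside -0.0464 for other pairs. The sample descriptions carry other numbers. By these, 4 pairs of FoEV and FeEV ran from -0.202 to 0.441, with a mean of 0.0724, beside -0.0137 for other pairs. The means were 0.0762 in FoEV vs. Co and 0.0968 in FeEV vs. Co. With the replicate numbers of the titles as the replicate block, the counts at an unadjusted p under 0.05 were 8, 0 and 7 (17.6%, 5.35% and 11.1% of all genes). At the adjusted threshold 0 of the 54 genes passed, beside 57 of all 10832 genes (0.526%) in FoEV vs. Co and 0 in the other comparisons. In FoEV vs. Co the main fit had passed 1 of all genes. With the numbers of the sample descriptions as the replicate block they were 7, 2 and 3 (14.6%, 5.12% and 6.28% of all genes). The standard errors of the log2 fold changes in FoEV vs. Co had a median of 0.12 and were largest for WDR36 (0.24), which had 26 to 52 counts per library and the largest biological coefficient of variation of the 54 genes (0.227). How much of this is depth was not tested.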
